A study of Rattus norvegicus with 18 samples.

Results

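Immediate early genes are switched on within minutes of a growth factor or stress signal and need no new protein synthesis for it. The 10 genes described here are Junb, Jun, Fos, Fosl1, Egr1, Ier2, Ier3, Ier5, Atf3 and Hbegf, out of 13810 genes named on either array type. Every probe set that the platform annotation gives to one of them alone was taken, which came to 15, all of them on array A and 0 on array B. In the rat aortic rings that they were measured in, about a day after vascular endothelial growth factor (VEGF) or angiopoietin-1 (Ang1), Junb lay 2.21-fold above the untreated mean with VEGF and 2.32-fold above it with Ang1. Ier5 lay 2.39-fold above it with Ang1 and 1.23-fold with VEGF. Leaving out RNAs that stood apart from the others took the Junb differences from 1.15 (VEGF) and 1.21 (Ang1) log2 units to as low as 0.68 and 0.56. No member passed the adjusted threshold in any comparison.

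The rings, 2 mm wide, came from the thoracic aorta of 3 male Fisher 344 rats aged 5 weeks and were kept without serum. From day 13 the untreated group stayed in plain medium, the VEGF group received recombinant human VEGF at 10 ng/ml, and the Ang1 group received recombinant human Ang1 at 100 ng/ml together with a poly-His antibody at 5 µg/ml. The untreated and VEGF groups had no antibody, so Ang1 and its antibody cannot be told apart. Each group held 3 RNAs from 4 to 6 pooled rings each, taken 20 h after treatment by the sample titles and 18 h by the design text.

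Jun, Junb, Fos and Fosl1 encode subunits of AP-1, a dimeric factor that binds DNA through a basic leucine zipper (bZIP). Fos-family proteins need a Jun-family partner, whereas Jun proteins can pair with each other and with Atf3. In vessel wall cells VEGF acts through a receptor tyrosine kinase and the ERK kinase cascade, which reaches Fos and Egr1 through serum response factor. Ang1 acts through the receptor Tie2. Transcripts of this class are short-lived and usually peak early, so a sample taken a day later reads what is left or kept up at that time.

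The upstream windows of the members are shown because the genes are defined by how fast their promoters respond. RefSeq's promoter table (GRCr8) held 6 of the 10 genes, Junb, Ier5, Ier2, Fosl1, Egr1 and Hbegf. The 250 bases before the start are printed for Junb and Ier5, which had the highest fold differences, and for Ier2, the only one of the 6 with a cAMP response element. They are Junb on the plus strand at chr19:40080876-40081125, Ier5 on the minus strand at chr13:69822543-69822792, and Ier2 on the plus strand at chr19:40399123-40399372. Capitals mark the TATA box (TATAAA) in Junb and Ier5 and the cAMP response element (TGACGTCA) in Ier2.
Junb: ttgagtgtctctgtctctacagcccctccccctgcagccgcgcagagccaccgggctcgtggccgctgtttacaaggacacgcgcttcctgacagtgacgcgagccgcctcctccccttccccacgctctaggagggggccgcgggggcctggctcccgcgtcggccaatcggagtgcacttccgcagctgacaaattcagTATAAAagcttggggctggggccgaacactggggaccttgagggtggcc
Ier5: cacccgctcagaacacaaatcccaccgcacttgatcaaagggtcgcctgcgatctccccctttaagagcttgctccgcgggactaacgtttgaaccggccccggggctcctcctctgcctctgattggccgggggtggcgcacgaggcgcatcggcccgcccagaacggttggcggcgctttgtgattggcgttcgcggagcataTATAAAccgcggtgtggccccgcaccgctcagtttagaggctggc
Ier2: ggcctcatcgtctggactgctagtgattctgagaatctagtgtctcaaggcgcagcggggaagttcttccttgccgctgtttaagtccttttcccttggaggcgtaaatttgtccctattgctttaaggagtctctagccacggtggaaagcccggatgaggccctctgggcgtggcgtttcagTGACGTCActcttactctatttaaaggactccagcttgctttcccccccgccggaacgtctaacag
The TATA box, searched on the coding strand, starts 49 bases before the start in Junb and 45 before it in Ier5, and 12.9% of all 33469 windows of this length hold one. The cAMP response element, searched on both strands, starts 66 bases before the start of Ier2 and occurs in 1.59% of all windows. A CArG box, the sequence that serum response factor binds, was found in Egr1 only, at 105 and again at 83 bases before the start, against 1.50% of all windows. The AP-1 site TGANTCA (6.34% of all windows) and the EGR site GCGNGGGCG (4.29%) matched 0 of the 6. These are matches of letters and not measured binding.

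Levels below are log2(signal + 16) after quantile normalisation on array A, differences are in log2 units, ± the standard error (SE) that limma gives, and folds are on that same scale. Of the 15 probe sets, 11 reached the filter at a mean level of 6.52, with at least 1 for each gene, and 4 did not. Of the 9 RNAs, 2 stood apart: the median correlation with the other arrays was 0.79 for untreated replicate 2 and 0.69 for Ang1 replicate 2, against 0.87 to 0.94 for the others. Untreated replicate 1 alone is labelled as amplified in a 2-cycle procedure. The ratio of the 3' to the 5' actin probe set, a sign of RNA length, was 1.86 to 7.70 in untreated, 6.18 to 8.29 in Ang1 and 8.79 to 12.4 in VEGF RNAs. The same ratio for Gapdh overlapped between groups, at 1.70 to 11.9, 2.27 to 11.3 and 9.26 to 15.1. Both RNAs that stood apart gave a weak 3' Gapdh signal (64.4 for the untreated and 446.9 for the Ang1 one), the other 7 giving 2218 to 3247. Differences against untreated with both treatments share the untreated RNAs and are not independent of each other. In tissue RNA, fewer cells of a type and less RNA per cell cannot be told apart.

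**Figure D1:**
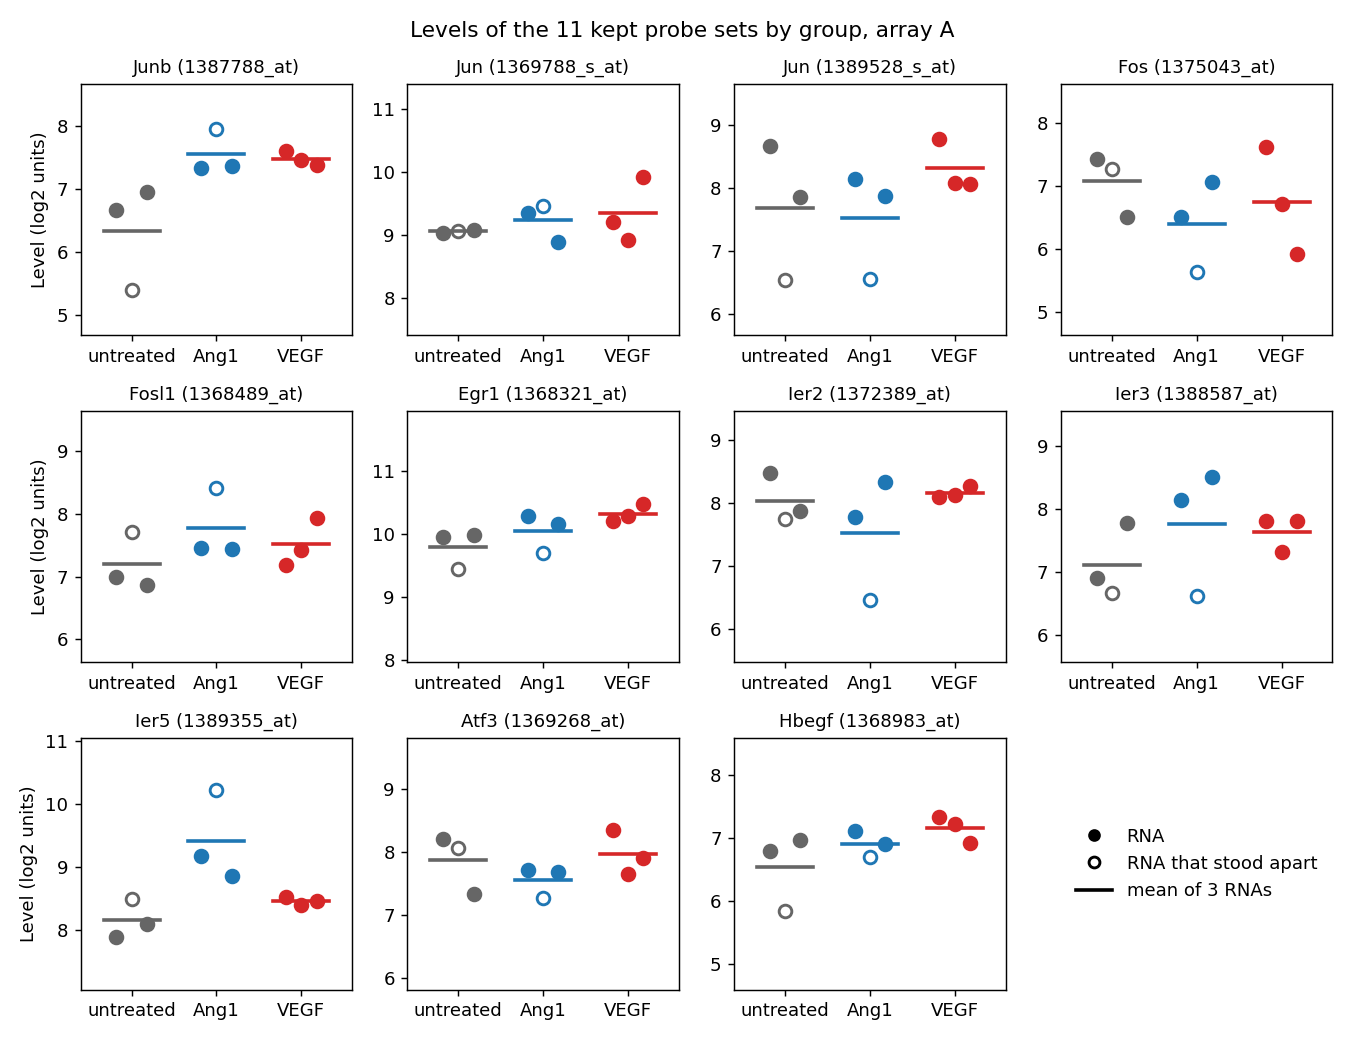
Level (log2 units, y axis) of each of the 11 kept probe sets in the untreated, Ang1 and VEGF group on array A (the y axes differ in position and have the same span). Points are RNAs, open points are the 2 RNAs that stood apart and lines are means of 3; the treated points of Junb lie above the untreated points in both groups, as do the Ang1 points of Ier5.

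Junb encodes a Jun-family subunit that often restrains Jun. Its levels (1387788_at) were 6.67, 5.39 and 6.95 in untreated replicates 1 to 3, 7.33, 7.95 and 7.36 with Ang1, and 7.60, 7.46 and 7.38 with VEGF. Both treated groups lay wholly above the untreated one, and untreated replicate 2 was the lowest of the 9. The mean was 6.34 ± 0.83 (SD, n = 3) untreated, 7.55 ± 0.35 with Ang1 and 7.48 ± 0.11 with VEGF. The untreated mean thus lay below the filter level of 6.52, which Junb reached through its treated RNAs. VEGF exceeded untreated by 1.15 ± 0.40 (SE; limma, unadjusted p = 0.016, adjusted p = 1.00; 95% interval 0.26 to 2.03). The excess with Ang1 was 1.21 ± 0.40 (limma, unadjusted p = 0.012, adjusted p = 0.953; interval 0.33 to 2.10). By unadjusted p these were ranks 30 and 50 of 9520 probe sets. Without untreated replicate 2 the differences were 0.68 and 0.74, and without both RNAs that stood apart they were 0.71 ± 0.23 and 0.56 ± 0.25. VEGF and Ang1 differed by -0.07, with an interval of -0.95 to 0.82 that leaves room for either to be higher.

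Jun, the founding AP-1 subunit and a substrate of the JNK kinases, had 2 kept probe sets that disagreed. With 1369788_s_at the untreated levels were 9.03, 9.06 and 9.07, the Ang1 levels 9.34, 9.46 and 8.89, and the VEGF levels 9.21, 8.92 and 9.91. All groups overlapped, the untreated RNAs lay close together, and VEGF replicate 3 stood highest. The differences were 0.29 ± 0.31 with VEGF and 0.18 ± 0.31 with Ang1, the second being -0.19 under median scaling. With 1389528_s_at the untreated levels were 8.66, 6.53 and 7.86, the Ang1 levels 8.14, 6.56 and 7.88, and the VEGF levels 8.78, 8.08 and 8.06. Here both low values belonged to the 2 RNAs that stood apart. The difference was 0.63 ± 0.56 with VEGF and -0.16 ± 0.56 with Ang1, and without those RNAs 0.05 ± 0.34 and -0.26 ± 0.38. The third probe set (1374404_at) ran from 5.46 to 6.84 and did not reach the filter.

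Fos encodes the partner that forms the classical AP-1 dimer with Jun. Its kept probe set (1375043_at) read 7.44, 7.28 and 6.50 untreated, 6.51, 5.64 and 7.07 with Ang1, and 7.62, 6.72 and 5.93 with VEGF. The groups overlapped throughout and the lowest value was Ang1 replicate 2. It was the only member with lower means in both treated groups, at -0.32 ± 0.49 with VEGF and -0.67 ± 0.49 with Ang1, or -0.22 ± 0.48 and -0.19 ± 0.53 without the 2 RNAs that stood apart. The second probe set of Fos (1371283_at) ran from 4.72 to 6.32, below the filter, and its VEGF difference had the other sign, 0.41 ± 0.42. Fosl1 encodes Fra-1, a Fos relative that is made later and lasts longer. Its levels (1368489_at) were 7.0, 7.71 and 6.87 untreated, 7.46, 8.40 and 7.44 with Ang1, and 7.19, 7.42 and 7.93 with VEGF. In each of the untreated and Ang1 groups replicate 2 was the highest, and no groups were separate. The differences were 0.32 ± 0.37 with VEGF and 0.57 ± 0.37 with Ang1, and 0.61 ± 0.27 and 0.54 ± 0.30 without both RNAs that stood apart.

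Atf3 encodes a bZIP factor of the stress response that can repress as a homodimer. It read 8.20, 8.06 and 7.34 untreated, 7.72, 7.27 and 7.67 with Ang1, and 8.35, 7.64 and 7.90 with VEGF (1369268_at). The 3 ranges overlapped, with differences of 0.10 ± 0.33 for VEGF and -0.31 ± 0.33 for Ang1. Egr1 encodes a zinc finger factor that is a standard readout of ERK activity. Its levels (1368321_at) were 9.96, 9.44 and 9.98 untreated, 10.29, 9.70 and 10.16 with Ang1, and 10.22, 10.29 and 10.48 with VEGF. All VEGF values lay above all untreated ones, while the Ang1 values overlapped both groups. The VEGF difference was 0.54 ± 0.28 (limma, unadjusted p = 0.079, adjusted p = 1.00), or 1.45-fold, and it was 0.36 ± 0.23 without the 2 RNAs that stood apart. The Ang1 difference was 0.26 ± 0.28 and turned to -0.18 under median scaling.

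Ier5 encodes a nuclear protein that works with heat shock factor 1. Its kept probe set (1389355_at) read 7.88, 8.49 and 8.09 untreated, 9.17, 10.21 and 8.85 with Ang1, and 8.51, 8.39 and 8.46 with VEGF. The Ang1 values lay wholly above both other groups, the VEGF values overlapped the untreated ones, and Ang1 replicate 2 was the highest of the 9. Ang1 exceeded untreated by 1.26 ± 0.37 (limma, unadjusted p = 0.0058, adjusted p = 0.953; interval 0.45 to 2.06), rank 18 of 9520 probe sets. Without Ang1 replicate 2 this was 0.89 ± 0.30, without both RNAs that stood apart 1.05 ± 0.28, and under median scaling 0.91 ± 0.29. VEGF exceeded untreated by 0.30 ± 0.37. Set directly against Ang1, VEGF was at -0.95 ± 0.37 (limma, unadjusted p = 0.025, adjusted p = 0.972; interval -1.76 to -0.15), and at -0.57 ± 0.25 without both RNAs that stood apart. The other probe sets of Ier5 ran from 5.60 to 6.47 (1375202_at) and from 4.19 to 4.61 (1389882_at), below the filter. Their Ang1 differences were 0.22 ± 0.29 and 0.19 ± 0.13, and in both Ang1 replicate 2 was the highest RNA. With 1375202_at the Ang1 levels were 6.08, 6.47 and 5.60 against 5.79, 6.01 and 5.69 untreated. Ang1 replicate 3 thus lay below every untreated RNA. The deposited signals of 1389882_at were only 1.6 to 18.4, so it does not bear on the difference of the kept probe set. Those of 1375202_at were 28.6 to 123, and it did not repeat the separation of Ang1 from untreated.

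Ier3 encodes a small protein that affects cell survival and keeps ERK active. Its levels (1388587_at) were 6.90, 6.66 and 7.78 untreated, 8.14, 6.61 and 8.50 with Ang1, and 7.80, 7.31 and 7.80 with VEGF. Ang1 replicates 1 and 3 were the 2 highest of the 9 RNAs and Ang1 replicate 2 the lowest. The difference was 0.52 ± 0.49 with VEGF and 0.64 ± 0.49 with Ang1. Leaving out Ang1 replicate 2 took the latter to 1.26 ± 0.37 (limma, unadjusted p = 0.0069, adjusted p = 0.952), and leaving out both RNAs that stood apart to 1.02 ± 0.36. Ier2 encodes a nuclear protein related to Ier5. It read 8.46, 7.74 and 7.87 untreated, 7.77, 6.46 and 8.33 with Ang1, and 8.09, 8.12 and 8.26 with VEGF (1372389_at). The VEGF values lay close together inside the untreated range, and the low Ang1 mean came with replicate 2. The differences were 0.13 ± 0.44 with VEGF and -0.51 ± 0.44 with Ang1, against -0.01 ± 0.29 and -0.13 ± 0.32 without both RNAs that stood apart.

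Hbegf encodes the heparin-binding ligand of the EGF receptor and is the one ligand among the 10. Its levels (1368983_at) were 6.79, 5.84 and 6.97 untreated, 7.11, 6.70 and 6.91 with Ang1, and 7.34, 7.23 and 6.92 with VEGF. The VEGF values overlapped the untreated ones only where VEGF replicate 3 met untreated replicate 3, the Ang1 values lay inside the untreated range or just above its top, and the lowest value was untreated replicate 2. The differences were 0.63 ± 0.34 with VEGF (limma, unadjusted p = 0.091, adjusted p = 1.00) and 0.37 ± 0.34 with Ang1. Without untreated replicate 2 they were 0.28 ± 0.30 and 0.03 ± 0.30.

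**Figure D2:**
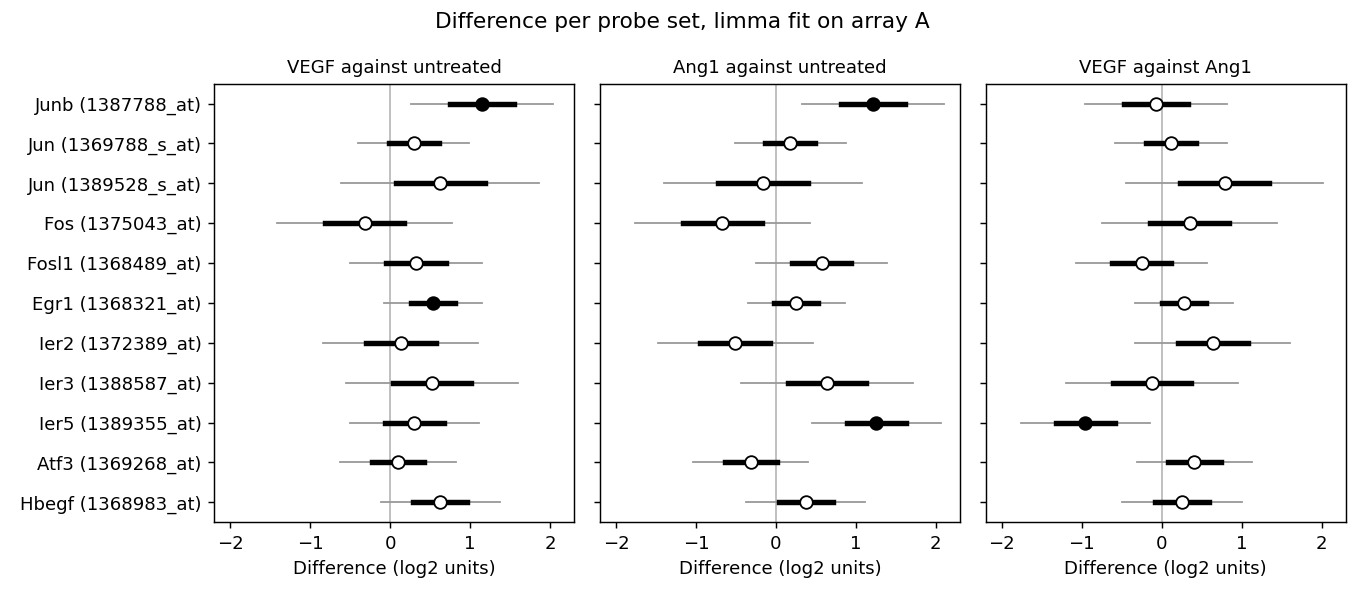
Difference (log2 units, x axis) of each kept probe set from limma, in 1 panel for each of the 3 comparisons; thick bars are 1 SE to each side, thin bars 95% intervals, and filled points mark groups that do not overlap. The intervals of Junb in both comparisons with untreated, and of Ier5 in both comparisons with Ang1, leave out 0 before adjustment.

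Ordered by mean, untreated was lowest for Junb, Jun (1369788_s_at), Fosl1, Egr1, Ier3, Ier5 and Hbegf, and Ang1 was lowest for Jun (1389528_s_at), Fos, Ier2 and Atf3. Neighbours in the order that were separate were untreated and VEGF for Junb and VEGF and Ang1 for Ier5. For Egr1 the separate groups, untreated and VEGF, had Ang1 between them. With VEGF 10 of the 11 kept probe sets had a higher mean than untreated, against 49.2% of all 9520. Past an adjusted p of 0.05 were 0 of the 11, as were 0% of all probe sets. At an unadjusted p below 0.05, 1 of the 11 (Junb) was higher and 0 were lower, where the whole array had 0.588% higher and 1.06% lower, 157 probe sets in all and 294 with the replicate number as a block. All 3 VEGF values lay above all 3 untreated ones in 2 (Junb and Egr1) and below them in 0, against 3.63% and 4.81% of all probe sets. Junb, which is in both counts, had an untreated mean of 6.34, below the filter level of 6.52. It was kept through its treated RNAs, so these counts do not test it against the share. Over the 10 genes, each by its brightest probe set, 9 were higher with a median difference of 0.31, against -0.00 over 7177 genes. Without both RNAs that stood apart 8 were higher with a median of 0.30. The actin ratio of the VEGF RNAs was above that of every untreated RNA and the Gapdh ratio was not, and their part in these differences was not tested.

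With Ang1, 7 of the 11 kept probe sets were higher than untreated, against 47.0% of all. None of the 11 passed the adjusted threshold, again beside 0% of all. Unadjusted, 2 (Junb and Ier5) were higher and 0 lower, against 1.08% and 2.09% of all probe sets. In 2, the same genes, the groups were separate upwards and in 0 downwards, against 3.57% and 5.54%. The limit given for Junb, which was kept through its treated RNAs, holds here too. Over the 10 genes 7 were higher with a median of 0.31, against -0.04 over all genes, and 7 with a median of 0.20 without both RNAs that stood apart. Median scaling moved the median of all probe sets from -0.03 to -0.23 for Ang1 against untreated and from 0.02 to 0.15 for VEGF against Ang1, and under it 5 of the 10 were higher with Ang1, with a median of 0.10.

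VEGF was set directly against Ang1 to ask whether both factors leave the same levels. No member passed the adjusted threshold, like 0% of all probe sets. Without adjustment, 0 of the 11 were higher and 1 (Ier5) was lower, against 0.956% and 1.03%. In 0 of them did VEGF lie wholly above Ang1 and in 1 (Ier5) wholly below, against 3.77% and 4.3%. Over the 10 genes 6 were higher with VEGF, the median being 0.19 against 0.03 over all genes. The 95% intervals for VEGF against Ang1 were wide, reaching from -0.31 to 1.13 for Atf3 and from -1.19 to 0.96 for Ier3.

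**Figure D3:**
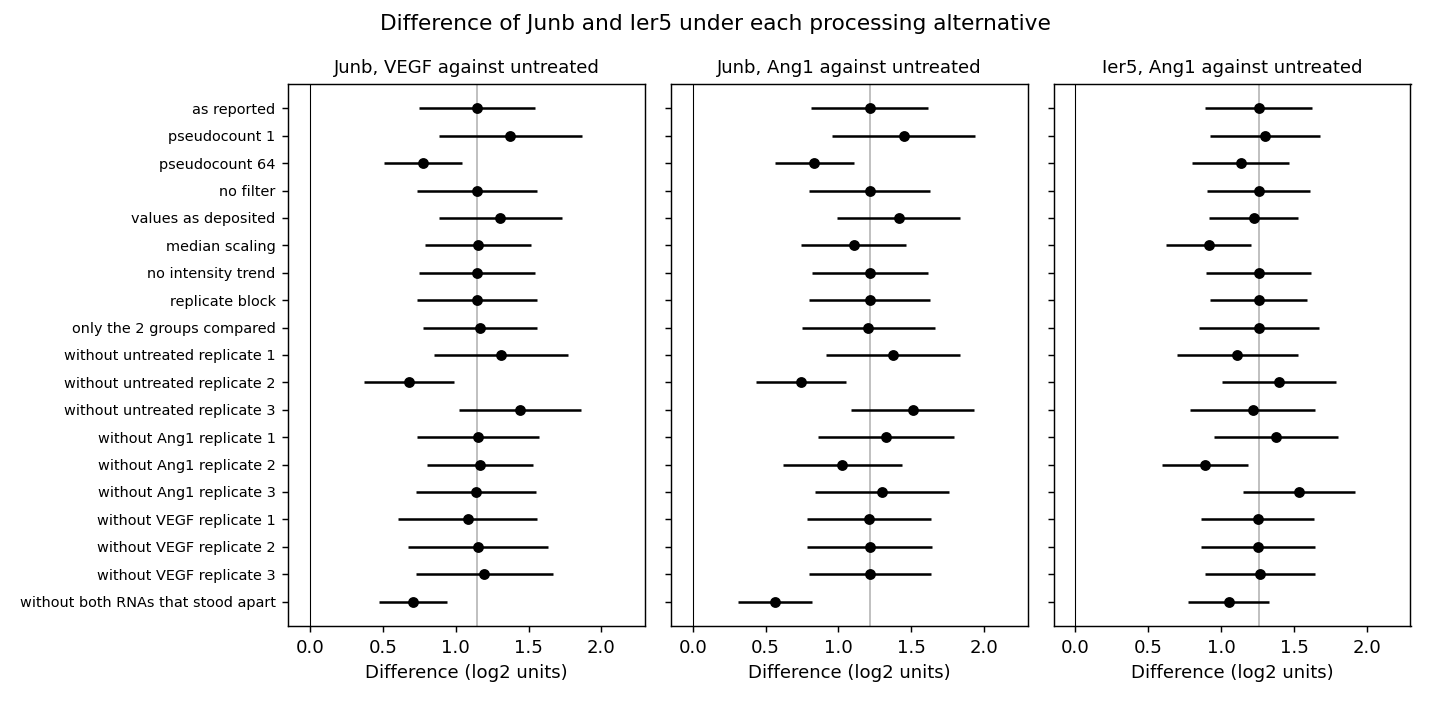
Difference (log2 units, x axis, with 1 SE to each side) of Junb and Ier5 as reported and under each processing alternative (y axis); the grey line marks the reported value. All points lie above 0, and those of Junb are lowest without untreated replicate 2 or without both RNAs that stood apart.

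The 10 genes were read beside lists of related genes, counted over the brightest kept probe set per gene on array A. Of all 7177 genes counted in this way, 49.8% were higher with VEGF and 46.3% with Ang1. None of the genes on these lists passed the adjusted threshold, higher or lower. Of 31 other immediate early genes, 19 were higher with VEGF (median 0.12) and 20 with Ang1 (median 0.11, which became -0.11 with 13 higher under median scaling). Zfp36, which encodes a protein that speeds the decay of cytokine mRNAs, had the smallest p of this list with Ang1. Its levels were 7.24, 7.14 and 6.90 untreated, 8.02, 8.61 and 8.09 with Ang1, and 7.60, 7.52 and 6.89 with VEGF. The Ang1 values of Zfp36 thus lay above both other groups, as those of Ier5 did, with a difference of 1.14 ± 0.30 (limma, unadjusted p = 0.0033, adjusted p = 0.953).

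Of 7 other AP-1 subunits and bZIP partners, 5 were higher with VEGF (median 0.09) and 4 with Ang1 (median 0.06), each falling to 2 of 7 under median scaling. Mafg, a small Maf protein that pairs with other bZIP factors, differed by 0.75 ± 0.47 with VEGF and 1.11 ± 0.47 with Ang1, with overlapping groups, or by 0.19 and 0.54 without untreated replicate 2. In the ERK and JNK kinase cascades and the serum response factor module, 6 of 12 genes were higher with each factor, with medians of -0.00 and -0.04. Its smallest p was that of Nras, a Ras protein upstream of ERK, at -1.23 ± 0.45 with VEGF.

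The ERK feedback list holds genes that ERK activity induces, and its kept members on array A are 4 Dusp phosphatases, Spry1, Errfi1, the EGR corepressors Nab1 and Nab2, and Ier3. With VEGF 8 of 9 were higher (median 0.32; 7 under median scaling) and with Ang1 4 of 9 (median -0.02; 8 with a median of 0.27 without both RNAs that stood apart). Spry1, a Sprouty inhibitor of receptor signalling, was wholly above untreated with VEGF, at 7.74, 7.45 and 7.04 against 6.95, 6.78 and 6.91. In the EGF receptor axis, to which Hbegf signals, 5 of 6 genes were higher with VEGF and 4 of 6 with Ang1, with medians of 0.27 and 0.26 (0.15 and -0.08 under median scaling). The receptor itself, Egfr, was kept on array B, at -0.12 ± 0.52 with VEGF and -0.68 ± 0.52 with Ang1, with overlapping groups. Without both RNAs that stood apart the latter was 0.03. Shc1, also kept on array B, differed by 0.03 ± 0.37 with VEGF and -0.15 ± 0.37 with Ang1. On array A Btc, another ligand of that receptor, differed by 0.65 ± 0.36 and 0.63 ± 0.36, or by 0.24 and 0.22 without untreated replicate 2. Its untreated levels were 6.99, 5.56 and 6.58, with a mean below the filter level of 6.52, which it reached through its treated RNAs.

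Genes known as AP-1 targets in other settings had 13 of 18 higher with VEGF (median 0.37) and 16 of 18 with Ang1 (median 0.42; 10 with a median of 0.09 under median scaling). Without both RNAs that stood apart the counts were 16 and 18. The smallest p values were those of the cytokines Il1b and Tnf, which NF-kB also controls. Il1b differed by 0.94 ± 0.33 with VEGF and 1.42 ± 0.33 with Ang1, and both groups lay wholly above untreated. Tnf differed by 1.20 ± 0.47 and 1.92 ± 0.47, again with separate groups. The untreated levels of Tnf, 6.21, 5.66 and 5.35, all lay below the filter level of 6.52, which it reached only through its treated RNAs. Ccl2, a chemokine that draws monocytes, differed by 1.00 ± 0.44 with VEGF with overlapping groups and by 1.35 ± 0.44 with Ang1, where the groups were separate; the latter was 0.88 under median scaling.

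**Figure D4:**
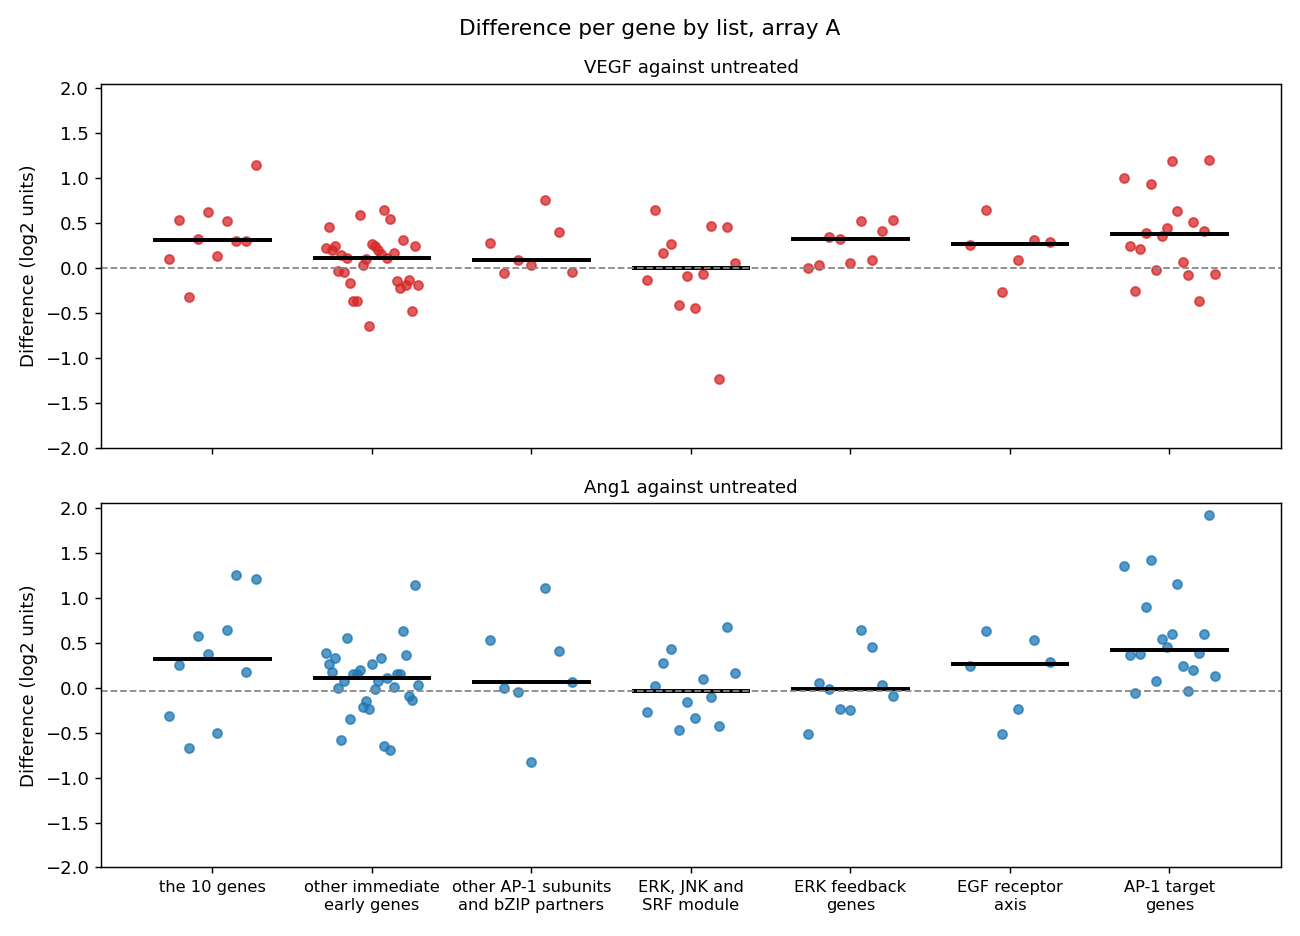
Difference per gene (log2 units, y axis) for VEGF and Ang1 against untreated in the 10 genes and 6 lists of related genes on array A; points are genes by their brightest kept probe set, bars are medians, and the dashed line is the median of all genes. The medians run from -0.00 to 0.37 with VEGF and from -0.04 to 0.42 with Ang1.

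The tissue was checked against markers of the cells that ring cultures hold. Kept were 8 of 8 endothelial markers on array A, 8 of 9 of smooth muscle, 8 of 8 of fibroblasts, 7 of 7 of pericytes and 8 of 9 of macrophages. Lymphocytes had 2 of 6, and neutrophils 0 of 2, with S100a8 and S100a9 below the filter. On array B the kept lymphocyte marker, Ms4a1, lay wholly above untreated with Ang1, at 1.25 ± 0.41 (limma, unadjusted p = 0.012, adjusted p = 0.466). Ang1 replicate 2, which stood apart, was its highest RNA. With VEGF Ms4a1 differed by 0.69 ± 0.41 with overlapping groups. The log2 of the summed macrophage signal was 13.2 to 13.9 in untreated, 13.8 in each Ang1 RNA and 13.7 to 14.0 in VEGF RNAs. Of the macrophage markers 6 of 8 were higher with VEGF and 7 of 8 with Ang1, with medians of 0.46 and 0.31 (5 of 8 with each under median scaling, medians 0.40 and 0.12). On array B, which kept 3 macrophage markers, Cd163 lay wholly above untreated with Ang1, at 1.15 ± 0.37 (limma, unadjusted p = 0.0099, adjusted p = 0.466), and differed by 0.25 ± 0.37 with VEGF. Adgre1 lay wholly above untreated with VEGF, at 1.04 ± 0.63, and differed by 0.88 ± 0.63 with Ang1 with overlapping groups. Mrc1 differed by -0.11 ± 0.39 with VEGF and 0.003 ± 0.39 with Ang1, with overlapping groups. Of the endothelial markers, 6 of 8 were higher with VEGF (median 0.25; 4 of 8 and 0.042 without both RNAs that stood apart) and 4 of 8 with Ang1 (median -0.02). Their summed level was 10.7 to 11.3 untreated, 10.6 to 11.6 with Ang1, and inside the Ang1 range in each VEGF RNA. On array B Tek, the receptor of Ang1, lay wholly below untreated with both factors, at -0.41 ± 0.35 with VEGF and -0.74 ± 0.35 with Ang1. For smooth muscle the summed level on array A was 12.5 to 13.6 untreated, 12.5 to 12.8 with Ang1 and 12.4 to 12.7 with VEGF. Higher were 2 of 8 markers with VEGF and 1 of 8 with Ang1. On array B Des lay wholly above untreated with Ang1, at 0.74 ± 0.41, and Myocd differed by -0.66 ± 0.38 with overlapping groups. The part of these cell mixtures in the levels of Junb and Ier5 was not tested.

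Among the members the spread over the 9 RNAs, as SD, ran from 0.32 for Jun (1369788_s_at) and 0.33 for Egr1 to 0.75 for Junb and 0.80 for Jun (1389528_s_at), against a median of 0.44 over all kept probe sets. The genes whose pattern over the 9 RNAs was most like that of a member are given as a description by Pearson correlation, which the groups and the 2 RNAs that stood apart shape. For Junb it was Stau2 (r = 0.99, or 0.93 over the 7 other RNAs), followed by Get4 (0.95, or 0.66) and Ets2 (0.95, or 0.82). For Ier5 it was Tpm3 (r = 0.99, or 0.98) and Adar (0.96, or 0.89). Egr1 ran most like Ogdh (r = 0.98) and Hspbp1 (r = 0.98), and Hbegf like Axl (r = 0.95, or 0.94 over the 7 RNAs). No member was among the 3 genes most like another member.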

How the data were processed

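RNA of rat aortic rings was measured in 9 RNAs, each on array A (RAE230A) and array B (RAE230B). The deposited values are intensities, 1 per probe set, made by the authors with MAS5 per the submitters' processing notes, with no version stated there. Detection calls were not used here.

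Intensities were taken as log2(signal + 16) and quantile normalised within an array type, leaving out the 57 control probe sets. The filter took probe sets whose mean over the 9 RNAs reached the 40th percentile. It kept 9520 of 15923 on array A. On array B it kept 9166 of 15333. Symbols came from the platform annotation: on array A 12783 probe sets had 1 symbol, 312 several and 2771 none. Groups were taken from the sample titles and compared with limma 3.58.1 in R 4.3.3, in 1 model over the 9 arrays of a type with an intensity trend, without a replicate block. P-values were Benjamini-Hochberg adjusted within the array type, with 0.05 as the threshold. An exact test of 3 against 3 RNAs cannot go below p = 0.1. The number of arrays limits the precision. In data simulated for VEGF against untreated on array A, the fit recovered 14% of probe sets shifted by 1 log2 unit, 86% of those shifted by 2 and 98% of those shifted by 3. The simulated noise was normal and independent between RNAs, with the limma spread and no RNA that stood apart. In it 200 probe sets were shifted at once, 50 by each of 1, 2, 3 and 4 log2 units. With fewer changed probe sets or RNAs that stand apart, as here, recovery can be lower.

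The members, the gene lists and the alternatives were chosen with earlier results of these data known. Every probe set of the 10 genes was described, and for each pathway list the counts and the 3 genes of smallest p in each comparison with untreated were available for naming. Lists were counted over the brightest kept probe set per gene. Alternatives were pseudocounts of 1 and 64, no filter, the values as deposited, median scaling, no intensity trend, a replicate block, a fit of only the groups compared, and leaving out each RNA or both RNAs that stood apart.

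Whether replicate numbers pair the RNAs was checked on the deviations from the group means. Same-numbered RNAs correlated at 0.14 to 0.41 for VEGF with untreated and 0.34 to 0.49 for Ang1 with untreated on array A, and at -0.15 to 0.23 for VEGF with Ang1. The design text says that each animal gave an RNA to each group, but no label ties a number to an animal.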

Additional observations from a re-analysis of the deposited data

How the results depend on the processing

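The 33 differences of the 11 kept probe sets were recomputed under 18 alternatives each. Of these, 12 could move a difference much. Omitting the filter, omitting the intensity trend or adding the replicate block leaves it as it is, and 3 more only leave out an RNA of the group not compared. Of the 396 values that could move, 24 changed direction. No value of a member passed an adjusted p of 0.05 in limma, and the lowest adjusted p was 0.687. With the 2 RNAs that stood apart left out, the difference of Ier2 (VEGF against untreated) was -0.012, and VEGF against Ang1 was 0.071 for Fosl1, -0.027 for Fos and 0.14 for Junb. With median scaling, Ang1 against untreated was -0.18 for Egr1 and -0.19 for the Jun probe set 1369788_s_at, and VEGF against Ang1 was 0.050 for Junb. On the values as deposited, Ang1 against untreated was 0.14 for the Jun probe set 1389528_s_at. Leaving out 1 RNA at a time, VEGF against untreated ran from -0.17 to 0.26 for Atf3, from -0.012 to 0.35 for Ier2 and from -0.75 to 0.095 for Fos. Ang1 against untreated ran from -0.90 to 0.024 for Ier2 and from -0.73 to 0.33 for the Jun probe set 1389528_s_at. VEGF against Ang1 ran from -0.46 to 0.071 for Fosl1, from -0.17 to 0.33 for the Jun probe set 1369788_s_at, from -0.082 to 0.76 for Fos, from -0.17 to 0.14 for Junb and from -0.72 to 0.26 for Ier3. The cause of these turns was not tested.

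The number of probe sets past an adjusted p of 0.05 stayed at 0 under every alternative except the values as deposited on array B, where 117 passed for Ang1 against untreated, all lower, and 25 for VEGF against Ang1, all higher. Ang1 replicate 3 on array B has a trimmed mean signal of 94.8 as deposited, against 250.03 to 250.09 on the other arrays. Over the alternatives, the probe sets of array A at an unadjusted p below 0.05 numbered 86 to 364 for VEGF against untreated, 177 to 685 for Ang1 against untreated and 119 to 575 for VEGF against Ang1. For Ang1 against untreated, 103 of these 302 were higher as reported, 248 of 383 on the values as deposited and 55 of 513 with median scaling. With the replicate block the numbers on array A went from 157 to 294, from 302 to 415 and from 189 to 408, and it changed no call at the adjusted threshold. The block cannot move a difference between these balanced groups; with it, the limma SE and unadjusted p were 0.41 and 0.020 for Junb with VEGF, 0.41 and 0.015 for Junb with Ang1, and 0.33 and 0.0037 for Ier5 with Ang1. The signal limits what could be said of the 4 probe sets below the filter.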

Other observations

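None of the 10 genes is on array B, but that array carries genes of the ERK feedback list, the ETS factors among them, with 8 kept. Nab1 and Nab2 are among these and were counted on array A as well, in the same RNAs. With VEGF all 8 had a higher mean than untreated, as did 49.0% of the 4035 genes of that array. The 8 differences ran from 0.014 to 1.72, with a median of 0.23 against -0.01 over all those genes. The count was 8 of 8 under median scaling and without the 2 RNAs that stood apart. It was 6 of 8 without untreated replicate 3 and 7 of 8 with a pseudocount of 1 and without each VEGF replicate in turn, and the median over the alternatives ran from 0.20 to 0.40, the highest being without VEGF replicate 2. The other lists kept fewer genes on array B and were mixed. Higher with VEGF were 4 of 6 other immediate early genes and 2 of 3 other AP-1 subunits and bZIP partners. In the ERK and JNK module it was 2 of 5, in the EGF receptor axis 1 of 2, and of AP-1 targets 1 of 1. Etv4, an ETS factor that ERK activity induces, read 6.32, 4.55 and 7.23 in untreated replicates 1 to 3 and 7.36, 7.60 and 8.31 with VEGF, so that all VEGF values lay above the untreated ones. Untreated replicates 1 and 2 lay below the filter level of array B, 6.71. The difference of Etv4 was 1.72 ± 0.61 (SE; limma, unadjusted p = 0.017, adjusted p = 0.999), and without untreated replicate 2, which held the low value, it was 0.97. With Ang1 Etv4 differed by 1.21 ± 0.61 with overlapping groups, or by 0.46 without untreated replicate 2. VEGF against Ang1 was 0.51 ± 0.61 for Etv4. With Ang1 5 of the 8 were higher (2 under median scaling), against 44.0% of all genes of that array. Nab1 with Ang1 was at -0.39 ± 0.62 on array B with overlapping groups, but at 0.46 ± 0.32 and wholly above untreated on array A. Etv5, another ETS factor, was wholly above untreated with Ang1 (0.61 ± 0.31) and differed by 0.18 ± 0.31 with VEGF. Spry4, a Sprouty inhibitor, was wholly above untreated with Ang1 (0.60 ± 0.28, but -0.12 under median scaling), whereas the phosphatase Dusp7 was wholly below it (-0.90 ± 0.41). Spred1, an inhibitor of the Ras step, differed by -1.38 ± 0.55 with overlapping groups. None of these passed the adjusted threshold in limma, as 0% of the 9166 probe sets of array B did.

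On array A, 2 of the 31 other immediate early genes lay wholly above untreated with VEGF, against 3.63% of all probe sets, and 0 lay wholly below. The smallest p of the list with VEGF was that of Tsc22d1, a transcription factor that TGF-beta induces, at -0.48 ± 0.25 with overlapping groups (limma, unadjusted p = 0.081, adjusted p = 1.00). One of the separate genes was Per1, a clock gene that serum and cAMP induce, which differed by 0.54 ± 0.38 with VEGF and -0.70 ± 0.38 with Ang1. The other was Nfil3, a bZIP repressor, at 0.64 ± 0.43 with VEGF. None of the 3 passed the adjusted threshold.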
